A study of Drosophila melanogaster with 2 samples.

Results

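Rab GTPase genes were examined for binding of CG3032, a Drosophila protein tagged here with eGFP, in whole Drosophila melanogaster prepupae. The 36 genes were the protein-coding genes whose annotated symbol begins with Rab followed by a number or by X and a number, out of 13945 protein-coding genes on the chromosome arms that hold peaks. Of these, 33 encode a Rab protein, and 3 encode regulators of Rab3 whose symbols fit the same pattern (Rab3-GEF, Rab3GAP1 and Rab3-GAP). The animals were prepupae aged 24 h, males and females together, of 1 transgenic line that stably expresses CG3032 with GFP at its C-terminus. There was 1 group with 2 biological replicates, labelled 2 and 3, and every animal carried the tagged protein, so no untagged or untreated group is compared here. Anti-GFP antibody pulled down the chromatin. The control library behind the peak calls was not analysed here. A peak list holds no expression values, so the stage and tissues could not be checked against marker genes, and all cell types of the animal contribute to each peak.

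Rab proteins are small GTPases that mark membranes. Each one switches between a GTP-bound form, which sits on a given compartment and recruits effectors such as tethers and motors, and a GDP-bound form that is returned to the cytosol. Exchange factors (GEFs) switch them on and GTPase-activating proteins (GAPs) switch them off. Some Rabs serve transport steps that nearly every cell needs, such as movement from the endoplasmic reticulum to the Golgi or the fusion of early endosomes. Others act mainly in specialised cells, for example at synaptic vesicles or in pigment granules. The fly X chromosome also carries a cluster of Rab9-type copies.

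The sequences printed here are the DNA around the summits on which the results turn, 60 bases to either side of the summit and read 5′ to 3′ along the gene's strand, from the RefSeq copy of the assembly that dm6 names. The first 4 are the Rab promoters with the 8-base word TATCGATA (a palindrome, the core of the DNA replication-related element, DRE) within 100 bp of the summit, and the word is in capitals.
Rab7 promoter, chr3R:23992951-23993071, plus strand: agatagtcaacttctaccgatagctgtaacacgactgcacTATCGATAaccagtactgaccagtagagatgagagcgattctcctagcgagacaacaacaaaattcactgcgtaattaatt
Rab8 promoter, chr3L:19870984-19871104, minus strand: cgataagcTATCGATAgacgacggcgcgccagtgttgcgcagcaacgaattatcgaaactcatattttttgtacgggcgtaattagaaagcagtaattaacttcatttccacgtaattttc
Rab30 promoter, chr2L:7032576-7032696, minus strand: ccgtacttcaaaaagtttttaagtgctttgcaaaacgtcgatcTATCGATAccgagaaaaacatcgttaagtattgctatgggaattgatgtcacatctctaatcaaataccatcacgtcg
Rab40 promoter, chrX:12463117-12463237, minus strand: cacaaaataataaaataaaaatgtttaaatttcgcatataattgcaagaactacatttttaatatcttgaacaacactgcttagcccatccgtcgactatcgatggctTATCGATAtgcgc
The next 5 are the strongest summits at a Rab gene or Rab3 regulator other than the Rab8 promoter above, shown because they had the highest signals. None of these stretches holds TATCGATA, and the central 21 bases around the summit are in capitals.
Rab5 internal promoter, chr2L:2363689-2363809, minus strand: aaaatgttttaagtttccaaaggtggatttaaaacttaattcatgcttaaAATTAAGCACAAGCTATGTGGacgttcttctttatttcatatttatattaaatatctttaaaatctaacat
Rab3GAP1 promoter, chr2L:1611260-1611380, minus strand: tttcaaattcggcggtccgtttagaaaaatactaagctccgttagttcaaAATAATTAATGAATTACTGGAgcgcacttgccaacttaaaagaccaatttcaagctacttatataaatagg
Rab39 promoter, chrX:7734584-7734704, plus strand: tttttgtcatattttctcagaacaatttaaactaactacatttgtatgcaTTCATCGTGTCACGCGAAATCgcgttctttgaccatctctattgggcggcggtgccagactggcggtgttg
Rab14 intron, chr2L:14355694-14355814, plus strand: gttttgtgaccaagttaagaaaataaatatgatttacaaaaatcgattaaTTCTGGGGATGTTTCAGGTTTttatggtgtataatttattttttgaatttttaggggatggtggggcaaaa
Rab11 intron, chr3R:21113170-21113290, plus strand: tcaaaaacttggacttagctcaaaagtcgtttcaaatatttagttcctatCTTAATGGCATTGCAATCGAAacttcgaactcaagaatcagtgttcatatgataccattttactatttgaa
The Rab5 stretch has a G+C content of 23.1%, against 41.3% for Rab7 and for Rab8.

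A summit is the base at which the authors placed the top of a peak, and a promoter summit is one within 500 bp of an annotated transcription start site (TSS) of the gene. The main list is the authors' list thresholded on the irreproducible discovery rate (IDR), a measure of the repeatability of peak ranks between replicates. Its peaks were exactly the strongest of the 30000 peaks in the list called on both replicates (the whole-series list), down to a signal of 150.5. Each replicate also has its own list of 30000 peaks, and its strongest peaks, as many as the IDR list holds, are called its top peaks here. Signal is the authors' own score for each peak, and its scale is not stated in the files or labels. It orders peaks within a list, and it is not set against the signal in another list. Rank 1 is the strongest peak of a list. Depth is unknown because the lists give no read counts.

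Of the 36 genes, 15 had an IDR promoter summit (41.7%, 95% exact interval 25.5 to 59.2), against 27.0% of all protein-coding genes. The interval covers counting error over genes only. The whole-series list placed a promoter summit at 23 of the 36 genes (63.9%, 46.2 to 79.2), against 49.2% of all genes. Both replicate lists had a promoter summit at 19 of the 36 (52.8%, 35.5 to 69.6), against 39.7% of all genes. The lower bounds of all 3 intervals fall below the share over all genes. The strongest IDR promoter signal had a median of 214 over the 15 genes (160 to 1711), against 336 over the 3763 protein-coding genes with such a summit. In the whole-series list the medians were close, at 173 over 23 of the genes and 169 over 6865 protein-coding genes. The signal of 11 of the 15 was below the median of 336, and 4 of the 15 were in the stronger part of the IDR list, above its median signal of 301.5. In descending order of whole-series signal the 15 were Rab5, Rab3GAP1, Rab39, Rab8, RabX1, Rab11, Rab14, Rab10, Rab1, Rab3-GAP, Rab7, Rab30, Rab40, Rab6 and Rab18.

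The threshold of the IDR list ran through the middle of the Rab genes. Just inside it lay Rab6 (signal 160, rank 7714) and Rab18 (signal 160, rank 7723), and just outside it lay Rab2 (143, rank 8578) and Rab23 (132, rank 9206). In all, 8 of the genes had a promoter summit in the whole-series list that was below the IDR list, which were Rab2, Rab23, Rab32, Rab35, Rab4, Rab9, Rab19 and Rab27. Whether a gene near this limit counts as bound therefore rests on a small difference in signal.

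**Figure D1:**
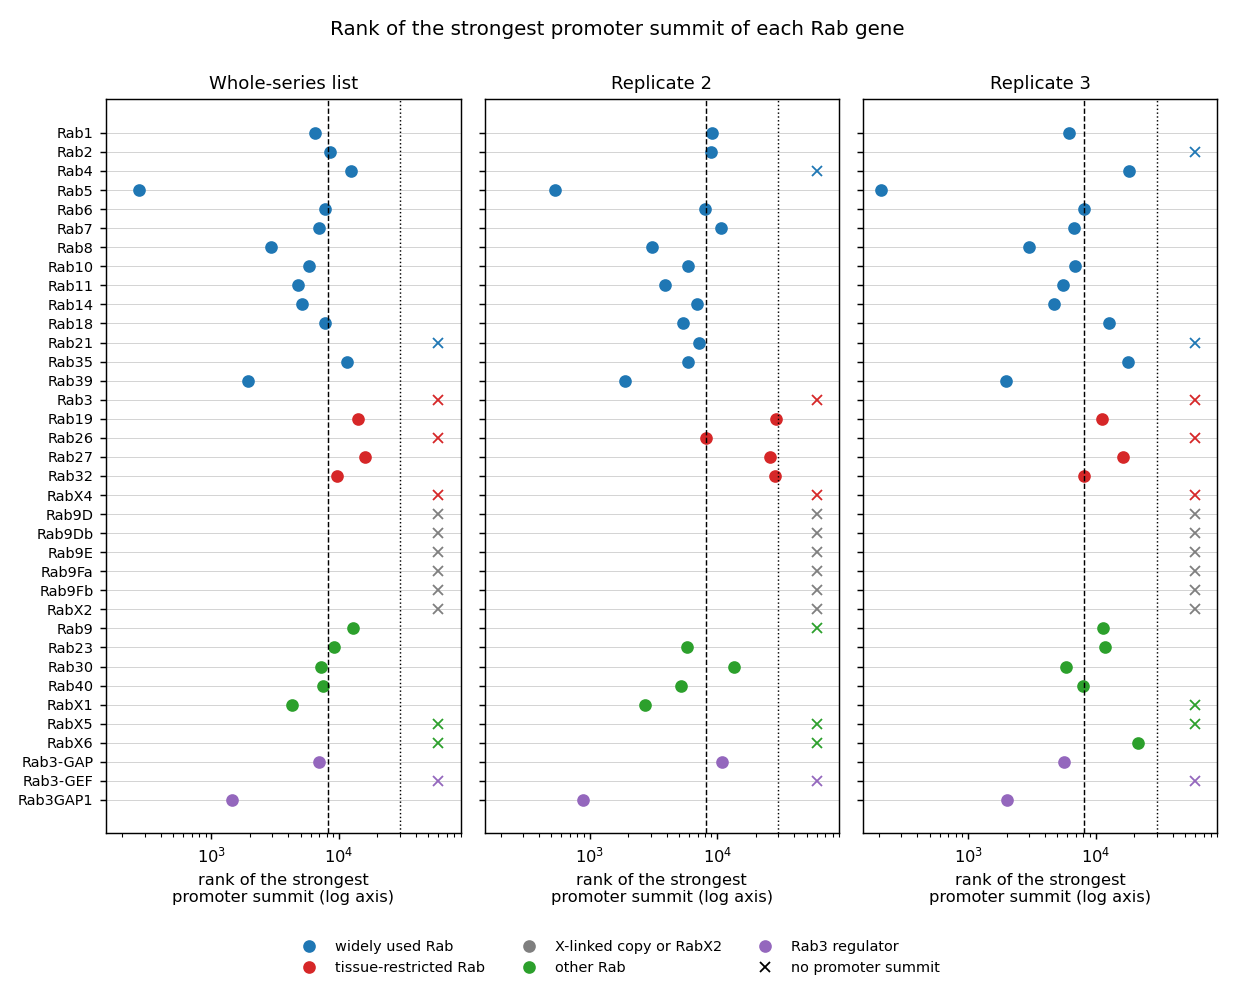
Rank of the strongest promoter summit of each of the 36 genes in the whole-series list and in the lists of replicates 2 and 3 (log axes, rank 1 is strongest, crosses mark genes with no promoter summit in that list). The dashed line marks the length of the IDR list, and the dotted line is rank 30000, the end of the list; Rab5 is the strongest in each panel, and the X-linked copies and RabX2 have no point in any panel.

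Among the Rabs of the endosome, Rab5 stood far ahead of the rest. Rab5 drives the fusion of early endosomes. Its main summit had a whole-series signal of 1711 (rank 270), with 435 in replicate 2 (rank 537) and 1284 in replicate 3 (rank 207). It was the strongest of the 36 genes in each of the 3 lists. The summit lay at chr2L:2363749, 245 bp upstream of an internal TSS and within an intron of the longer transcripts. Rab5 has 6 annotated TSSs over 6132 bp, and 4 weaker promoter summits were in the whole-series list, at signals of 110, 99.0, 65.0 and 55.5. A gene with many TSSs has more positions at which a promoter summit can fall, so the count of summits at Rab5 is not comparable with that of a gene with 1 TSS. Rab7, which acts in fusion at late endosomes and lysosomes, had a promoter summit 3 bp downstream of its TSS with a signal of 178 (rank 7002). That summit had a signal of 39.3 in replicate 2 (rank 10668) and 127 in replicate 3 (rank 6817), so it was outside the top peaks of replicate 2. Rab21, an endocytic Rab, had no promoter summit in the whole-series list or in replicate 3, and a signal of 59.2 (rank 7199) in replicate 2. Rab4, a Rab of fast recycling, had a whole-series signal of 91.5 (rank 12523), below the IDR list, and was seen in replicate 3 (40.7, rank 18134) and not in replicate 2.

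Recycling and secretion were represented by Rab11, Rab8, Rab10, Rab14 and Rab35. Rab8, which serves transport to the plasma membrane, had a promoter summit 34 bp downstream of its TSS with a signal of 415 (rank 2931), and its replicates were close in rank, at 133 in replicate 2 (rank 3095) and 272 in replicate 3 (rank 3028). Rab11, the Rab of the recycling endosome, had a promoter signal of 262 (rank 4763), with 109 in replicate 2 (rank 3908) and 154 in replicate 3 (rank 5580). All of these summits were top peaks in both replicates. Rab10, a Rab of polarised secretion, had a signal of 214 (rank 5841), with 72.8 in replicate 2 (rank 5942) and 125 in replicate 3 (rank 6943). Rab14, a Rab of endosomes and the Golgi that takes part in phagosome maturation, had a promoter signal of 242 (rank 5176), with 61.3 in replicate 2 (rank 6957) and 179 in replicate 3 (rank 4731). For both genes the summit was a top peak of each replicate. Rab35, which acts in recycling at the plasma membrane, had a promoter summit 131 bp upstream of its TSS with a signal of 100 (rank 11656), which is outside the IDR list. In replicate 2 that summit was at rank 5939, while replicate 3 had only a weaker promoter summit 42 bp inside the gene (rank 18024).

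Golgi and lysosome-related Rabs sat close to the threshold, apart from Rab39. Rab39, which serves lysosome-related transport, had a summit 279 bp upstream of its TSS with a signal of 588 (rank 1924), with 200 in replicate 2 (rank 1884) and 386 in replicate 3 (rank 1999). Its ranks in the 3 lists were close to each other. Rab1, which directs transport from the endoplasmic reticulum to the Golgi, had a signal of 192 (rank 6494), with 46.2 in replicate 2 (rank 9115) and 140 in replicate 3 (rank 6154). Rab6, a Golgi Rab, had a signal of 160 with a summit 102 bp inside the gene, and the replicates placed it at 212 bp (53.3, rank 8008, replicate 2) and at 39 bp (106, rank 8153, replicate 3). The replicate 2 summit of Rab6 was more than 100 bp away and was not matched. Rab18, which is found at lipid droplets and the endoplasmic reticulum, had a signal of 160, with 81.0 in replicate 2 (rank 5343) and 64.3 in replicate 3 (rank 12748). Rab2, a Rab of Golgi and lysosome-related fusion, had a promoter summit 32 bp upstream of its TSS in the whole-series list (143, rank 8578) and 12 bp upstream in replicate 2 (47.4, rank 8898), with none in replicate 3.

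The tissue-restricted Rabs were Rab3, Rab19, Rab26, Rab27, Rab32 and RabX4, and none of the 6 had an IDR promoter summit. Rab3, the synaptic vesicle Rab, had no summit in any list within its 7869 bp or near its TSS, and the nearest whole-series summit was 2027 bp away from that TSS. RabX4, a neuronal Rab, also had none, with the nearest whole-series summit 14262 bp from its TSS. Rab26, which is linked to synaptic vesicles, had promoter summits in replicate 2 only, at 52.4 for the strongest (rank 8139), 451 bp upstream of a TSS. Weak promoter summits were present at the other 3. Rab32, a Rab of pigment granules known in the fly from eye colour, had a whole-series promoter signal of 126 (rank 9594), with 107 in replicate 3 (rank 8081) and no replicate 2 summit within 100 bp. Rab19 had 78.3 (rank 14200), with 74.2 in replicate 3 (rank 11291) and again no match in replicate 2. Rab27, a Rab of regulated secretion in mammals, had 67.2 (rank 15927), with 46.4 in replicate 3 (rank 16469) and no match in replicate 2. Replicate 2 had promoter summits of these 3 genes at other places, near the end of its list, at rank 28193 for Rab32, rank 29039 for Rab19 and rank 25656 for Rab27.

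Set side by side, 10 of the 14 widely used Rabs had an IDR promoter summit (71.4%, 95% exact interval 41.9 to 91.6), against 0 of the 6 tissue-restricted Rabs (0%, 0 to 45.9), and 27.0% of all protein-coding genes. The interval of the tissue-restricted class covers the share over all genes. The widely used class held Rab1, Rab2, Rab4, Rab5, Rab6, Rab7, Rab8, Rab10, Rab11, Rab14, Rab18, Rab21, Rab35 and Rab39, and both classes were drawn up from general knowledge of where these proteins act, not from the files. The difference, widely used minus tissue-restricted, was 71.4 percentage points (95% Newcombe interval 24.5 to 88.3, counting error over genes only), and no test was made because the classes were drawn up with results of these data known. In the whole-series list the shares were 13 of 14 (92.9%, 66.1 to 99.8) and 3 of 6 (50%, 11.8 to 88.2), against 49.2% of all genes, a difference of 42.9 points, and this comparison was chosen with the values in view. Promoter summits in both replicate lists, at any place in the promoter, were found at 11 of 14 widely used Rabs and at 3 of 6 tissue-restricted Rabs, against 39.7% of all genes. The strongest whole-series promoter summit was matched in both replicates within 100 bp at 9 of 14 widely used Rabs and at 0 of 6 tissue-restricted Rabs, against 31.7% of all genes, a count that was chosen with the values in view. The size of the difference rested on the list: it was 21.4 points (3 of 14 against 0 of 6) among the IDR peaks above their median signal. With the top peaks of 1 replicate in place of the IDR list, it was 47.6 points without replicate 2, where 9 of 14 and 1 of 6 (Rab32) had a summit. Without replicate 3 it was 54.8 points, from 10 of 14 and 1 of 6 (Rab26). No share over all genes is given for these alternative lists. The widely used genes were shorter, with a median length of 2882 bp against 5480 bp for the tissue-restricted genes, and 5 of 14 against 3 of 6 had more than 1 TSS. In whole animals, binding in few cells and weak binding in many cells cannot be told apart.

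**Figure D2:**
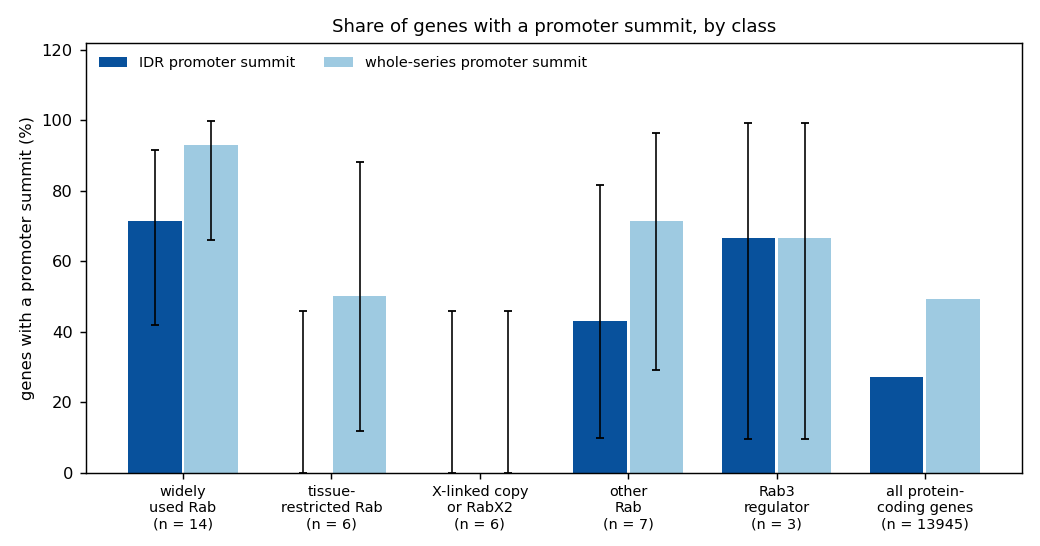
Percentage of genes with a promoter summit in the IDR list (dark bars) and in the whole-series list (light bars) for the 5 classes and for all protein-coding genes. Lines are 95% exact intervals for counting error over genes; widely used Rabs reach 71.4% and 92.9%, and tissue-restricted Rabs 0% and 50%.

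The X-linked Rab9-type copies (Rab9D, Rab9Db, Rab9E, Rab9Fa and Rab9Fb) and RabX2, which is grouped with them here, had no promoter summit and no summit inside the gene in any of the 4 lists. They are short genes of 791 to 897 bp. The nearest whole-series summit was 1411 bp from the TSS of Rab9D, 2421 bp from that of Rab9Db and between 14234 and 25991 bp from those of the other 4. Rab9D, Rab9Db, Rab9E and Rab9Fa resemble each other closely, with identities from 96.0% (Rab9D and Rab9Db) to 99.0% (Rab9Db and Rab9Fa). Rab9Fb is less alike, at 78.4% to 81.0% identity to these 4. RabX2 is at 74.1% to 76.5% identity to the Rab9-type copies. Reads from near-identical copies may map to several places. Of the 50-base words within 500 bp of the TSS, 40.8% to 58.6% occurred at 1 place in the genome for Rab9D, Rab9Db, Rab9E and Rab9Fa, against 79.4% for RabX2, 99.3% for Rab9Fb and 100% for all other 30 genes. An empty promoter at the first 4 is therefore uncertain, and the part of mappability in it was not tested. Rab9Fb was as empty although nearly all of its words were unique.

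The remaining Rabs were Rab9, Rab23, Rab30, Rab40, RabX1, RabX5 and RabX6, and 3 of these 7 had an IDR promoter summit (42.9%, 9.90 to 81.6), against 27.0% of all genes. RabX1, an endosomal Rab, had a signal of 288 (rank 4298) and 149 in replicate 2 (rank 2713). Replicate 3 had no summit within 20478 bp of its TSS. RabX1 was thus strong in 1 replicate and absent from the list of the other, and the cause was not tested. Over all 3068 IDR promoter summits, 60 (1.96%) had no replicate 3 summit within 500 bp. Rab30, a Golgi Rab, had a signal of 173 (rank 7176), with 31.9 in replicate 2 (rank 13558) and 147 in replicate 3 (rank 5887). Rab40, a Rab that carries a SOCS box, had a signal of 164 (rank 7536), with 83.0 in replicate 2 (rank 5215) and, at the matching place, 63.6 in replicate 3 (rank 12870). Each of these summits was a top peak in 1 replicate only, replicate 3 for Rab30 and replicate 2 for Rab40. At another place in the Rab40 promoter, 66 bp downstream of a TSS, replicate 3 had a stronger summit (108, rank 7989). That summit was a top peak of replicate 3. Rab23, which acts in planar cell polarity, had a whole-series signal of 132 (rank 9206). Rab9, a Rab of transport from late endosomes to the Golgi, had 89.2 (rank 12774). RabX6 had a promoter summit in replicate 3 only, at rank 21521, and RabX5 had none in any list.

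Of the 3 Rab3 regulators, 2 had an IDR promoter summit, against 27.0% of all genes. Rab3GAP1, the catalytic subunit of the Rab3 GAP, had the second strongest promoter summit of all 36 genes, 163 bp upstream of its TSS, with a signal of 724 (rank 1447), and 336 in replicate 2 (rank 880) and 383 in replicate 3 (rank 2011). Rab3-GAP had a signal of 179 (rank 6968), with 38.3 in replicate 2 (rank 10953) and 153 in replicate 3 (rank 5623). Rab3-GEF, the exchange factor, had no promoter summit in any list. Rab3 itself had none either.

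Most of these summits were found in both replicates, although the replicates differed in rank. Of the 15 IDR promoter summits, 13 had a summit in each replicate within 100 bp, against 2700 of 3068 (88.0%) for all IDR promoter summits, a count that is partly built in because the IDR list was made from the replicates. The exceptions were Rab6 in replicate 2 and RabX1 in replicate 3. The matched summits had a median rank of 5279 in replicate 2 (537 to 13558) and of 5755 in replicate 3 (207 to 12870), and 10 of 14 in replicate 2 and 12 of 14 in replicate 3 were top peaks. A promoter summit was present in only 1 replicate at 7 of the 36 genes, which were Rab2, Rab21, Rab26 and RabX1 in replicate 2 and Rab4, Rab9 and RabX6 in replicate 3. No share over all genes is given for this count, and none over all IDR promoter summits for the top peaks. Whether these counts are unusual therefore cannot be told.

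The promoter summits lay on both sides of the TSS. The strongest IDR promoter summit was at a median of −65.0 bp from the TSS over the 15 genes (−279 to 102, negative is upstream), against −138 bp over all 3763 protein-coding genes with one. It was upstream in 11 of 15, against 86.2% of all genes, and it lay within 150 bp of the TSS in 11 of 15, against 51.7% of all genes. The median position depended on the peaks used: it was −131 bp without replicate 3 and −21.0 bp without replicate 2, from the top peaks of the remaining replicate. A TSS window of 1000 bp gave −130 bp. The 4 downstream summits were those of Rab6, Rab8, Rab7 and Rab14.

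**Figure D3:**
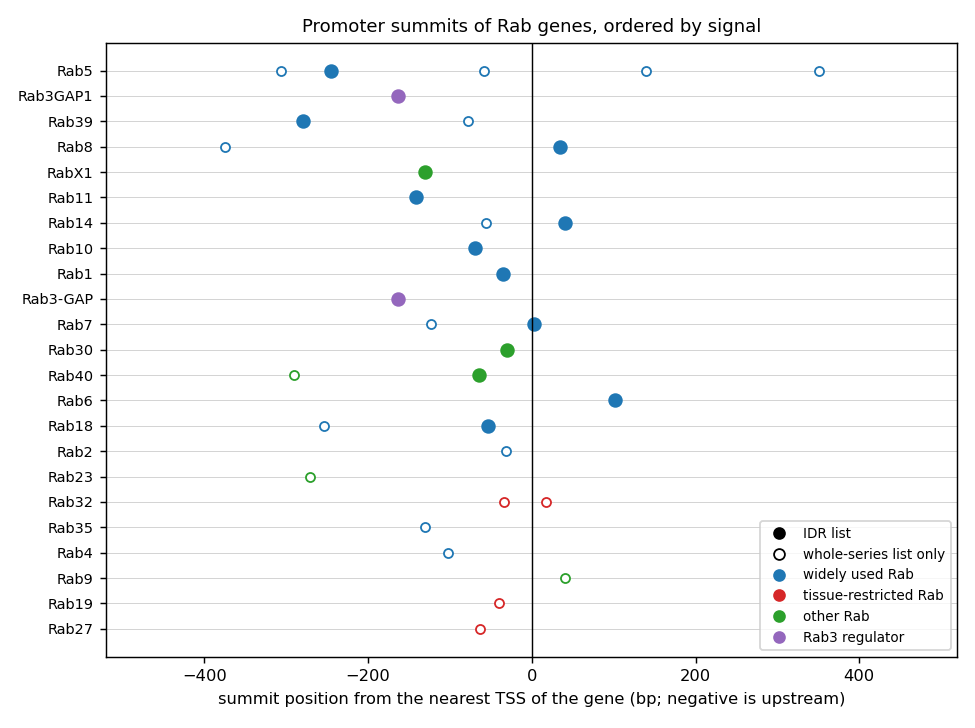
Position of each promoter summit relative to the nearest TSS of its gene, with genes in descending order of signal (filled points are in the IDR list, open points only in the whole-series list, colours give the class). The 15 strongest IDR summits range from −279 to 102 bp.

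A gene on the opposite strand started near most of these summits. Of the 15 IDR promoter summits, 10 also lay within 500 bp of a TSS of another protein-coding gene. The nearest such neighbour was on the opposite strand in all 10. Among all IDR promoter summits, 1117 of 3068 (36.4%) had TSSs of more than 1 gene in reach, on either strand. That share counts each summit once, whereas the 15 were found through genes, which favours summits shared by several genes. The 2 shares are therefore not like for like, and no conclusion is drawn from them. The neighbours were Phae1 at Rab6, Epp at Rab7, Usp32 at Rab8, CG17068 at Rab10, l(2)34Fd at Rab14, Pdp at Rab39, Caper at Rab30, CG42258 at Rab40, mi at RabX1 and CG14352 at Rab3GAP1. The summit of Rab39 lay 279 bp from the start of Rab39 and 7 bp from that of Pdp. When each summit was given to the gene with the nearest TSS only, 12 of the 36 genes had an IDR promoter summit. The summits of Rab39, Rab3GAP1 and RabX1 went to their neighbours. No share over all genes is given under this rule. The 27.0% of all genes lets a summit count for several genes, so it is no background for the 12. A peak at such a shared start cannot be assigned to either gene from these data.

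Summits inside some of the genes added sites that the promoter count misses. Of the 36 genes, 9 had an IDR summit inside the gene (25.0%, 12.1 to 42.2), against 15.6% of all protein-coding genes, and 15 had a whole-series summit inside (41.7%, 25.5 to 59.2), against 33.9% of all genes. The 9 were 7 of the 14 widely used Rabs (Rab5, Rab6, Rab7, Rab8, Rab11, Rab14 and Rab35), Rab32 of the 6 tissue-restricted Rabs, and Rab3GAP1. At Rab5, Rab6, Rab7 and Rab8 the only IDR summit inside was the promoter summit already counted. Of the 9, only Rab32 and Rab35 had no IDR promoter summit. Of the 22 IDR summits at these genes, promoter or inside, 10 were upstream of the gene, 7 in introns, 5 in 5′ UTRs and 0 in coding exons. There were 7 summits inside a gene and more than 500 bp from any of its TSSs. The strongest was in an intron of Rab14, 609 bp downstream of a TSS, with a signal of 552 (rank 2064), and 198 in replicate 2 (rank 1925) and 376 in replicate 3 (rank 2074). A second Rab14 intron summit, 812 bp downstream, had a signal of 208 (rank 6025). The intron summit of Rab14 was thus stronger than its promoter summit, at 552 against 242. The same held for Rab11, with an intron summit 1822 bp downstream of the TSS at 405 (rank 3009), and 119 in replicate 2 (rank 3553) and 282 in replicate 3 (rank 2899), against a promoter signal of 262. Rab32, which had no IDR promoter summit, had intron summits at 261 (rank 4769) and 208 (rank 6021). So 1 of the 6 tissue-restricted Rabs was bound inside the gene at the level of the IDR list. Rab35 had a 5′ UTR summit 751 bp downstream of its TSS at 162 (rank 7623), at rank 28411 in replicate 2 and rank 5724 in replicate 3. Rab3GAP1 had an intron summit 7154 bp downstream of its TSS at 239 (rank 5240).

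**Figure D4:**
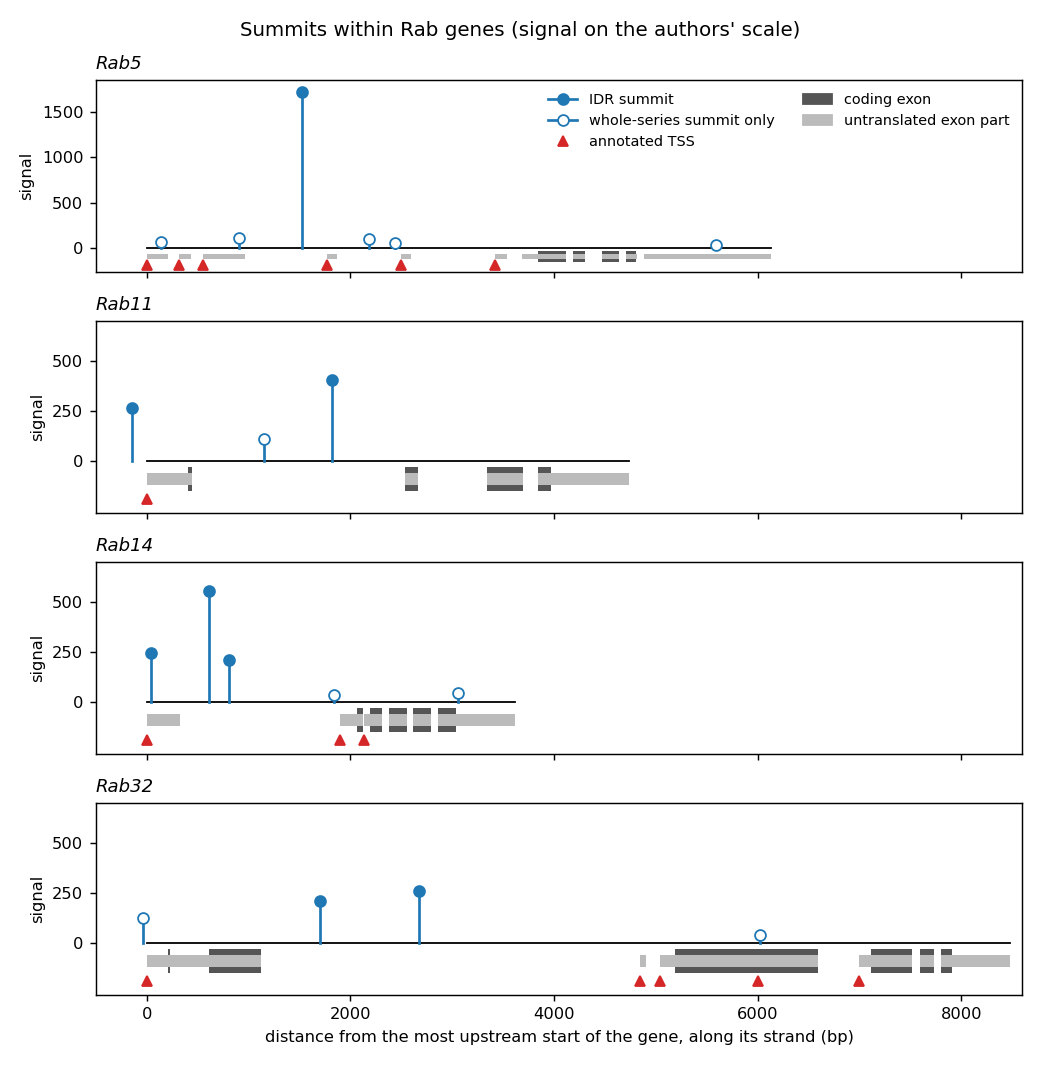
Summits within 500 bp of a TSS of, or inside, Rab5, Rab11, Rab14 and Rab32, by distance from the most upstream start of the gene (x axis, bp) and signal on the authors' scale (y axis, whose range is larger for Rab5), above exons and TSSs. The Rab5 summit at 1711 stands 245 bp upstream of an internal TSS, within an intron of the longer transcripts. In Rab11 and Rab14 the strongest summit (405 and 552) also lies in an intron.

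The DNA at these summits was searched on both strands for 6 words. They were the DRE core TATCGATA, the shorter word CGATA that it contains, the core-promoter word GGTCACACT, the TATA-box word TATAAA, the GAGA-factor word GAGAG and the E-box word CAGCTG. TATCGATA was within 100 bp of the promoter summit at 4 of 15 genes (26.7%), the Rab7, Rab8, Rab30 and Rab40 promoters printed above, against 6.78% of all 3068 IDR promoter summits. It began 20 bases before the summit in Rab7, 52 before it in Rab8, 17 before it in Rab30 and 48 after it in Rab40. The shorter CGATA was present at 11 of 15 (73.3%), against 36.7%. The other words were near the share over all such summits, with TATAAA at 6 of 15 (40.0%) against 38.3%, GAGAG at 4 of 15 (26.7%) against 19.8%, CAGCTG at 1 of 15 (6.67%) against 8.70% and GGTCACACT at 1 of 15 (6.67%, at Rab14) against 3.32%. With windows of 50 bp to either side, TATCGATA remained at 2 of 15, against 2.87%, and CGATA at 5 of 15, against 19.0%. The median G+C content of the 201 bases around the summit was 37.8% (23.4 to 50.2), against 34.3% over all IDR promoter summits.

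TATCGATA was also frequent in Rab promoters when genes without an IDR promoter summit were included. In windows from 250 bp upstream to 50 bp downstream of the TSSs, TATCGATA was present at 11 of the 33 Rab genes (33.3%), against 10.2% of all protein-coding genes. The 11 were Rab2, Rab6, Rab7, Rab8, Rab14, Rab35, Rab19, Rab27, Rab30, Rab40 and RabX6. It was in 6 of 14 widely used Rabs (42.9%), 2 of 6 tissue-restricted Rabs (33.3%), 0 of 6 X-linked copies and RabX2, and 3 of 7 other Rabs (42.9%). Of the Rab genes with TATCGATA, 6 of 11 (54.5%) had an IDR promoter summit, against 7 of 22 (31.8%) of those without it. Over all protein-coding genes the shares were 43.9% with the word and 25.1% without it. All 11 Rab genes with the word except RabX6 had a whole-series promoter summit, against 63.6% of the 33 Rab genes, which include these 11. The share was 49.2% of all protein-coding genes. No whole-series share is given for all protein-coding genes with the word, so no conclusion is drawn from this contrast. RabX6 had a promoter summit in replicate 3 only. CGATA was in the promoter of 13 of 14 widely used Rabs (92.9%) and 4 of 6 tissue-restricted Rabs (66.7%), against 53.0% of all genes. All 13 Rab genes with an IDR promoter summit held CGATA in that window. These were 13 of the 22 Rab genes with it (59.1%), against 33.2% of the 7397 protein-coding genes with it. None of the 11 Rab genes without it had such a summit, against 1308 of the 6548 protein-coding genes without it (20.0%). Those 11 were the 5 X-linked copies and RabX2, most of whose empty promoters are uncertain, and Rab3, Rab4, Rab9, Rab23 and RabX4. The window is set on the TSSs and not on the summit, so more bases were searched at a gene with several TSSs. Of the 13 Rab genes, Rab5, Rab6 and Rab39 had no CGATA within 100 bp of the promoter summit. A match to these letters is a description of the sequence and not a binding site.

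The proteins that work with Rabs were examined through 3 lists. Of 32 Rab regulators, which include Rab3GAP1, Rab3-GAP and Rab3-GEF, 18 had an IDR promoter summit (56.2%, 37.7 to 73.6), and the strongest other than these were SIDL (signal 1540, rank 346), Mon1 (1531, rank 351), a subunit of the Rab7 exchange factor, and spri (861, rank 1110), a Rab5 exchange factor. Of 36 Rab effectors and tethers, 17 had one (47.2%, 30.4 to 64.5), led by Rbsn-5 (1419, rank 440), a Rab5 effector, GCC185 (889, rank 1058), a golgin of the trans-Golgi, and Sec6 (888, rank 1060), a subunit of the exocyst tether. Other small GTPases had one at 20 of 34 (58.8%, 40.7 to 75.4), led by Mtl (4067, rank 24), Arl1 (3129, rank 55), an Arf-like GTPase of the Golgi, and RhoBTB (756, rank 1348). The 33 Rab genes stood at 13 (39.4%, 22.9 to 57.9), against 27.0% of all protein-coding genes. In the whole-series list the shares were 63.6% for the Rab genes, 71.9% for the regulators, 80.6% for the effectors and tethers and 94.1% for the other small GTPases, against 49.2% of all genes.

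**Figure D5:**
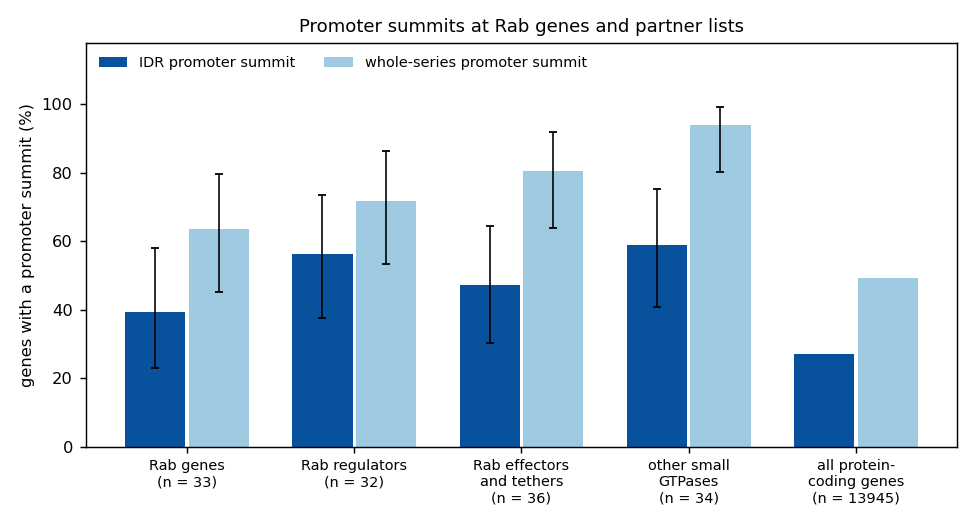
Percentage of genes with a promoter summit in the IDR list (dark bars) and the whole-series list (light bars) for the 33 Rab genes, 3 partner lists and all protein-coding genes. Lines are 95% exact intervals; Rab genes stand at 39.4% and 63.6%, and other small GTPases at 58.8% and 94.1%.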

How the data were processed

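The assay was ChIP-seq of tagged CG3032 in whole prepupae. The labels give a fragment size of 200 to 800 bp. The authors deposited 4 narrowPeak lists on dm6. Per the file headers, the list of each replicate comes from its own alignment plus a control, the whole-series list from both alignments plus a control, and the IDR list from those 3 lists. The signal column is the authors' own peak score. How reads were aligned, peaks called and IDR applied was not given in the sources used here. Lists were set side by side by rank, since 3 of them have a fixed length of 30000 peaks. They hold no read counts, so depth is unknown.

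Genes, TSSs and exons came from Ensembl BDGP6.54, release 115 (13945 protein-coding genes on the arms 2L, 2R, 3L, 3R, 4 and X, since the lists hold no Y peaks), and sequence from the RefSeq copy of the same assembly. Summits are 1-based. A summit can count for several genes. Python 3.11.15 with scipy 1.17.1 (exact binomial intervals), statsmodels 0.14.6 (Newcombe interval) and Biopython 1.88 (pairwise alignment) was used, and the summit-to-gene rules were tested on simulated data. No test was made: the members, classes and lists were chosen with earlier results of these data known. Every matched gene is named, with full values for those with an IDR promoter summit, and up to 3 genes with the strongest peak per partner list. Of the symbols written into the partner lists, 13 regulators, 7 effectors or tethers and 4 other small GTPases had no match, many being alternative spellings, and were left out. The sequences to print were chosen after the summits were known. Alternatives covered the TSS window, the number of peaks, each replicate alone, the assignment of a summit to 1 gene, the class lists, the matching distance and the motif window.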

Additional observations from a re-analysis of the deposited data

How the results depend on the processing

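The 13 results were recomputed under 43 alternatives. Only the class difference and the median position have a direction, and neither changed sign. The other results are counts, which cannot reverse. A count was taken as unmoved within 1.5 times its reported value, the class difference within its 95% interval (24.5 to 88.3) and the median position within the SD of 77.8 bp between the replicates. That SD was computed from −131 and −21.0 bp, the median positions without replicate 3 and without replicate 2. For those alternatives the limit is therefore no independent check of the median position. By these wide limits 33 alternatives did not move the value and 10 did. Keeping only the IDR peaks above their median signal gave 4 genes with a promoter summit, 4 with a summit inside, a class difference of 21.4 points and a median position of −204 bp. Counting only the top peaks of each replicate (as many as the IDR list holds) gave 9 genes with a promoter summit in both replicates. Motif windows of 50 bp gave counts of 2 for TATCGATA, 5 for CGATA, 3 for TATAAA, 2 for GAGAG and 0 for CAGCTG. The smaller lists and windows lie within the main ones, so these counts could only fall or stay equal.

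Without replicate 2, 14 of the 36 genes had a promoter summit among the top peaks of replicate 3 (Rab18 and RabX1 had left and Rab32 had entered), and without replicate 3 the count was 15, but against the IDR list Rab1, Rab7, Rab30 and Rab3-GAP had left and Rab21, Rab23, Rab26 and Rab35 had entered. TSS windows of 200 and 1000 bp gave 13 and 17 genes. Rab5 and Rab39 had left with the window of 200 bp, and Rab26 and Rab35 had entered with that of 1000 bp. The wider window thus gave an IDR promoter summit to 1 of 6 tissue-restricted Rabs. The median position was −131 bp without replicate 3, −21.0 bp without replicate 2 and −130 bp with the wider window. The class difference was 47.6 points without replicate 2, 54.8 without replicate 3, 42.9 in the whole-series list, 57.1 and 61.9 under TSS windows of 200 and 1000 bp, 64.3 with the nearest gene only, 71.4 with the X-linked copies and RabX2 counted as tissue-restricted, and 85.7 for 7 core Rabs. No paired analysis was possible because there is 1 group. No share over all genes is given for the counts under these alternatives. The unknown depth, the 2 replicates of 1 line and the small classes limit all counts.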
